A study of Rattus norvegicus with 12 samples.

Results

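The genes followed here encode the machinery through which a cell reads interferon-γ and related cytokines: the receptor chains Ifngr1 and Ifngr2, the kinases Jak1 and Jak2, and the transcription factors Stat2, Stat3, Stat5a, Stat5b and Stat6. They form a fixed list of 9 genes, and all 9 had a row of their own among the 18166 named genes of the expression table, 1 row each. Levels are log2 expression, so a difference of 1 is a doubling. Interferon-γ binds a receptor built from both Ifngr chains, on which Jak1 and Jak2 phosphorylate each other and the receptor tail, and STAT proteins recruited there dimerise, enter the nucleus and bind DNA. Stat2 acts mostly with Irf9 downstream of type I interferons. Stat3 is best known from cytokines of the interleukin-6 family and drives the reactive state of astrocytes, Stat5a and Stat5b serve growth hormone, prolactin and several haematopoietic cytokines, and Stat6 serves interleukin-4 and interleukin-13. These genes are themselves regulated, so the amount of each transcript is part of how a culture answers a later stimulus.

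RNA came from primary astrocytes of the cerebral cortex of Sprague-Dawley rats 1 day old, kept for 2 days in serum-free medium to reduce microglia and meningeal cells. All cultures had been transfected with an siRNA. Of the 4 groups, 3 carried the control siRNA: siCon stayed untreated, siCon_IFNg received interferon-γ, and siCon_IFNg_GW received interferon-γ together with a compound that the labels name only as GW. In the remaining group, siSHP_IFNg_GW, the siRNA was directed at SHP and both agents were given. Exposure lasted 3 h, and each group had 3 arrays, numbered 1, 2 and 3 in the titles. Per the series text, 4 arrays had been used in another series before; it does not name them. Separate cultures are not named for arrays of a group, so the p-values reflect array-to-array spread that may be technical. No group combined SHP siRNA with interferon-γ alone, and none received GW without interferon-γ.

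Several facts of the whole series bear on what follows. The 12 arrays had medians of 6.49 to 6.58 over all genes. Irf1, an early interferon-γ target, was at 8.87 ± 0.38 (SD, n = 3) in siCon and 11.77 ± 0.11 in siCon_IFNg. Nr0b2, which encodes SHP (small heterodimer partner), was at 4.80 ± 0.11 in siCon_IFNg_GW and 4.96 ± 0.16 in siSHP_IFNg_GW, under the background level of 5.39 (the 95th percentile of 227 olfactory and vomeronasal receptor genes), so these arrays carry no check of the knockdown. The arrays numbered 1 stood apart: in siCon, 23.1% of genes differed between number 1 and numbers 2 and 3 (limma adjusted p under 0.05). The defining astrocyte genes were high (Gfap at a mean of 11.94, Aqp4 at 11.64), and the 10 measured astrocyte markers had medians of 10.61 to 11.13 on the 12 arrays. All 12 microglia markers also lay above background, with medians of 8.47 to 9.46. The 7 measured meningeal and vascular markers had medians of 8.06 to 9.63, with 2 of 7 under background. Oligodendrocyte markers (1 of 9 under background) had medians of 6.81 to 7.31. Neuron markers (4 of 8 under background) had 5.29 to 6.23. No level below can therefore be assigned to astrocytes alone. Fewer cells of a type and less RNA per cell cannot be told apart in such cultures. In the group means over all 12 arrays 0 members passed in any comparison. Because number 1 stood apart, each comparison is also given without the 4 arrays numbered 1, where n is 2 per group. That number 1 stands apart was known from these same data. Calls made without it therefore describe numbers 2 and 3 only and do not replace the result over 12 arrays.

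The comparison of siCon_IFNg with siCon asks what interferon-γ did to its own signalling chain. Jak2, Stat3 and Stat2 were the members with the largest positive differences, at 0.98, 0.59 and 0.87, while Jak1 and Stat6 had 0.05 and 0.00. Over 12 arrays 0 of 9 members passed by limma (0.121% of all genes did), with 2, Stat3 and Jak2, at an unadjusted p under 0.05 (5.5% of all genes). With the title number as a block, Jak2 and Stat3 rose, 2 of 9 members against 0.936% of all genes. Without number 1, Stat2, Stat3, Stat5b and Jak2 rose and 0 members fell, 4 of 9 members against 4.71% of all genes (3.05% higher and 1.66% lower). The median difference over the members was 0.30 with all arrays and 0.07 without number 1, against -0.03 and -0.04 over all genes. Microglia markers had a median of -0.13, and 0 of 12 passed over 12 arrays, with the block or without number 1.

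Setting siCon_IFNg_GW against siCon_IFNg shows how the members differed once GW was added to interferon-γ. Stat2 and Jak2 had the largest negative differences, -0.98 and -0.68, and Stat3 stayed near its interferon-γ level with -0.08. Over 12 arrays 0 of 9 members passed (0.886% of all genes did) and 1, Jak2, had an unadjusted p under 0.05 (11.4% of all genes). With the block Jak2 fell, 1 of 9 members against 6.55% of all genes. Without number 1 Stat2, Stat5b and Jak2 fell and Ifngr1 and Stat6 rose, so 5 of 9 members passed against 11.5% of all genes (4.98% lower and 6.47% higher). The members' median was -0.08 with and without number 1, against 0.00 and 0.01 over all genes. The microglia markers were lower with GW too: their summed signal (log2 of the sum over 12 genes) was 12.60 to 12.77 in siCon_IFNg and 12.13 to 12.30 in siCon_IFNg_GW, 10 of 12 were negative, 0 of 12 passed over 12 arrays, 6 fell with the block, and without number 1 7 fell and 1 rose. Their part in the members' differences was not tested.

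The comparison of siSHP_IFNg_GW with siCon_IFNg_GW asks what SHP siRNA changed under interferon-γ plus GW. Again Stat2 and Jak2 had the largest differences, this time positive, 0.97 and 0.57. Over 12 arrays 0 of 9 members and 0% of all genes passed by limma; 1 member, Jak2, and 2.29% of all genes had an unadjusted p under 0.05. With the block 0 members passed as well, with 2 members at an unadjusted p under 0.05 (5.35% of all genes). Without number 1 Stat2 and Jak2 rose, 2 of 9 members against 1.47% of all genes (1.35% higher). Microglia markers had a median difference of 0.09 here and 0 of 12 passed with or without number 1. The 3 comparisons share arrays with each other, siCon_IFNg between the first pair and siCon_IFNg_GW between the second, and their values are set side by side only.

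**Figure D1:**
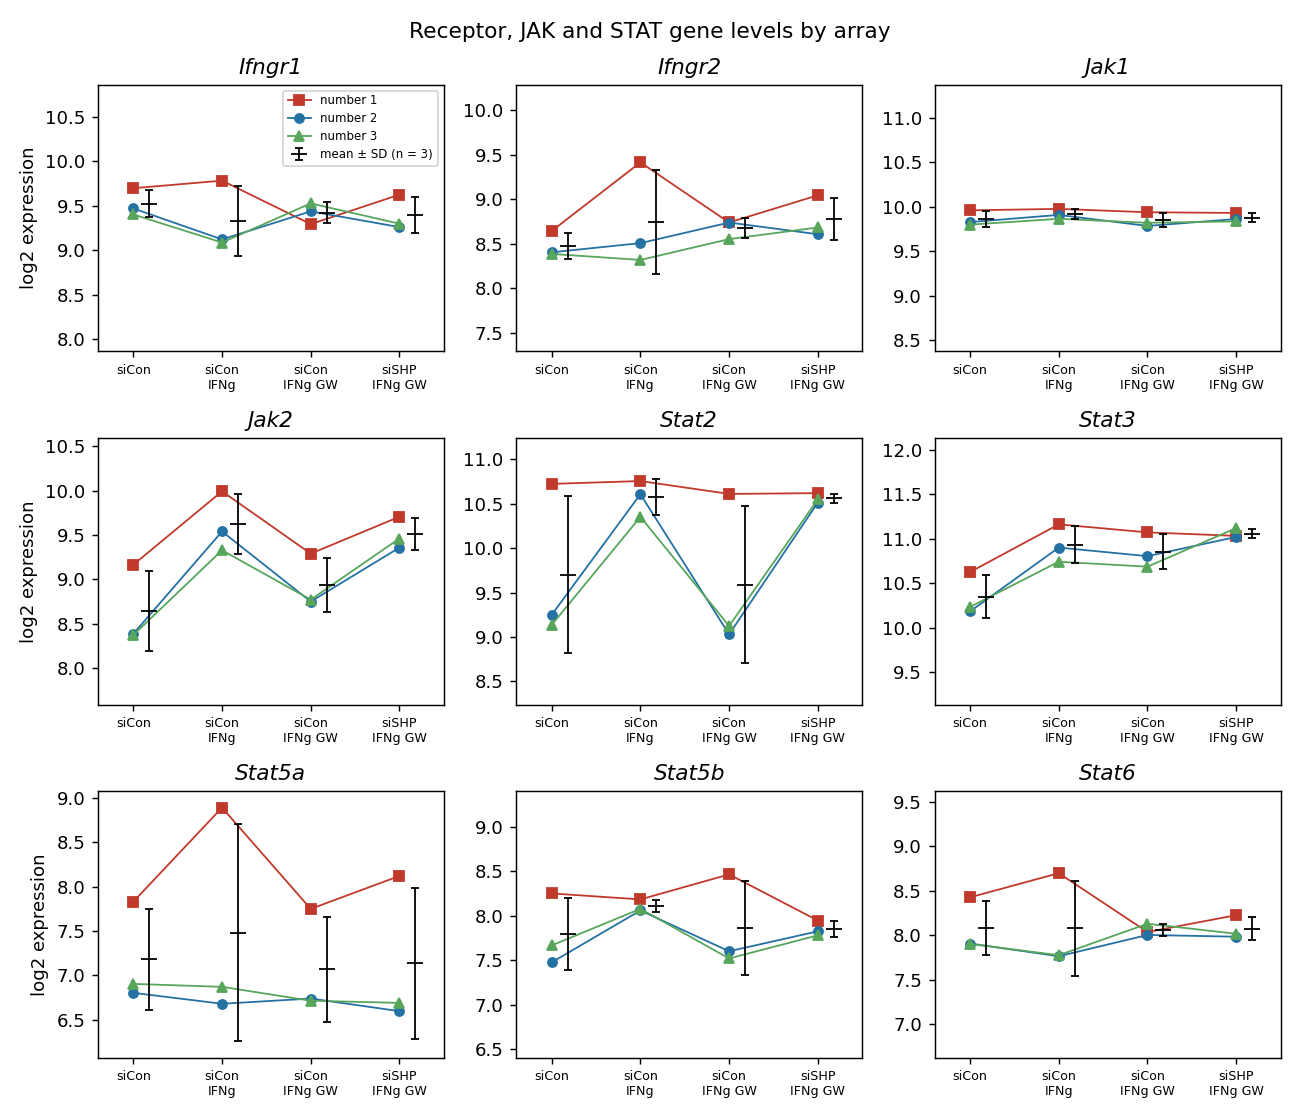
Log2 expression of the 9 genes on each of the 12 arrays, by treatment group; lines join arrays with the same title number, and black bars are the mean ± SD of 3 arrays. Every panel spans 3 log2 units. Jak2 follows an up, down, up course in each number, Stat2 follows it in numbers 2 and 3 and lies between 10.61 and 10.75 in number 1, and Jak1 is nearly level.

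The receptor chains come first in the pathway. Ifngr1, the ligand-binding chain, was at 9.70, 9.47 and 9.40 in siCon (numbers 1, 2 and 3) and at 9.78, 9.12 and 9.09 in siCon_IFNg. With GW it was at 9.29, 9.44 and 9.53, and with SHP siRNA at 9.63, 9.26 and 9.30. Numbers 2 and 3 were lower with interferon-γ and back near siCon with GW, while number 1 went the other way at each step. The differences over 12 arrays were -0.19 ± 0.18 (SE) with interferon-γ, 0.09 ± 0.18 with GW and -0.02 ± 0.18 with SHP siRNA (limma adjusted p = 1.00, 0.93 and 1.00). Without number 1 Ifngr1 had -0.33 ± 0.08 with interferon-γ, short of the threshold (limma adjusted p = 0.057), and rose by 0.38 ± 0.08 with GW (adjusted p = 0.019). The largest gap between neighbours in the order of its group means was 0.10, between siCon and siCon_IFNg_GW, and all neighbouring groups overlapped.

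Ifngr2, the chain that carries Jak2, was at 8.64, 8.40 and 8.38 in siCon and at 9.42, 8.51 and 8.32 in siCon_IFNg. It was at 8.74, 8.74 and 8.55 in siCon_IFNg_GW and at 9.04, 8.61 and 8.68 in siSHP_IFNg_GW. The single array siCon_IFNg number 1 was the highest of the 12. Differences were 0.27 ± 0.24, -0.07 ± 0.24 and 0.10 ± 0.24 (SE) in the 3 comparisons, none past the threshold (limma adjusted p = 1.00, 0.97 and 1.00). Without number 1 the difference with GW was 0.23 ± 0.10 (adjusted p = 0.19) and that with interferon-γ 0.02 ± 0.10.

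Jak1, the kinase attached to Ifngr1 and to many other cytokine receptors, had the narrowest range of the 9. Its 12 values ran from 9.79 in siCon_IFNg_GW number 2 to 9.98 in siCon_IFNg number 1. Group means were 9.86 ± 0.09, 9.92 ± 0.06, 9.85 ± 0.08 and 9.88 ± 0.05 (SD, n = 3) in the order siCon, siCon_IFNg, siCon_IFNg_GW, siSHP_IFNg_GW, and every neighbouring pair in the order of means overlapped. The 95% interval of the interferon-γ difference was -0.13 to 0.24 and that of the GW difference -0.25 to 0.12. The interval of the SHP siRNA difference was -0.16 to 0.21.

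Jak2, the partner kinase of the pair, moved the same way in all 3 numbers at each step. It was at 9.16, 8.39 and 8.37 in siCon and at 9.99, 9.54 and 9.33 in siCon_IFNg, and these groups did not overlap (as for 9.3% of all genes). In siCon_IFNg_GW it was at 9.29, 8.75 and 8.77, all lower than every siCon_IFNg array (15.3% of all genes had no overlap there). In siSHP_IFNg_GW it was at 9.70, 9.36 and 9.46, all higher than every siCon_IFNg_GW array (6.47% of all genes). The interferon-γ difference was 0.98 ± 0.24 (SE), 1.97-fold (limma adjusted p = 0.31), with 0.83, 1.15 and 0.95 in numbers 1, 2 and 3. With the block its SE was 0.11 and Jak2 rose (adjusted p = 0.0035); without number 1 it rose by 1.05 ± 0.09, or 2.07-fold (adjusted p = 4.76e-04).

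With GW the Jak2 difference was -0.68 ± 0.24 (SE; limma adjusted p = 0.28), with -0.70, -0.79 and -0.56 in the 3 numbers. Jak2 fell with the block (adjusted p = 0.0067) and without number 1 (-0.67 ± 0.09, adjusted p = 0.0031). With SHP siRNA the difference was 0.57 ± 0.24 (limma adjusted p = 1.00; 0.44 with the block), with 0.42, 0.61 and 0.69 in the 3 numbers. Without number 1 it rose by 0.65 ± 0.09 (adjusted p = 0.013). Its level with GW was still above siCon in each number, by 0.12, 0.36 and 0.40 (difference 0.30 ± 0.24, limma adjusted p = 0.76; 0.13 with the block and 0.058 without number 1). The order of its group means was siCon_IFNg, siSHP_IFNg_GW, siCon_IFNg_GW and siCon; the first pair and the last pair overlapped, and the middle pair did not.

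Stat2 had the widest swings among the STAT genes in numbers 2 and 3. In siCon it was at 9.25 and 9.14 there, and at 10.72 in number 1. In siCon_IFNg the 3 arrays were at 10.75, 10.61 and 10.35, in siCon_IFNg_GW at 10.61, 9.03 and 9.12, and in siSHP_IFNg_GW at 10.62, 10.51 and 10.55. Numbers 2 and 3 thus switched between about the same low and high levels, and number 1 was high in all 4 groups, its untreated array included. Over 12 arrays the differences were 0.87 ± 0.45, -0.98 ± 0.45 and 0.97 ± 0.45 (SE) in the 3 comparisons (limma adjusted p = 0.97, 0.45 and 1.00; 0.27, 0.079 and 0.72 with the block).

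Without number 1 Stat2 rose 2.44-fold with interferon-γ (1.29 ± 0.10, limma adjusted p = 2.98e-04) and fell 2.64-fold with GW (-1.40 ± 0.10, adjusted p = 1.34e-04). It rose 2.74-fold with SHP siRNA (1.45 ± 0.10, adjusted p = 3.12e-04). In these numbers its level with interferon-γ plus GW was close to that of siCon: the difference was -0.12 ± 0.10 without number 1 (adjusted p = 0.57) and -0.11 ± 0.45 over 12 arrays (adjusted p = 0.97). In siCon, number 1 exceeded the mean of numbers 2 and 3 by 1.53 ± 0.13 (SE; limma adjusted p = 1.80e-04), a test of 1 array against 2 that assumes the lone array varies like the rest. Beside it, microglia markers were higher in siCon number 1 by a median of 0.50 and the 7 measured meningeal and vascular markers lower by 2.10; their part in the Stat2 level was not tested.

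Stat3 was higher on every siCon_IFNg array than on every siCon array (9.3% of all genes had no overlap there) and stayed near that level with GW. It was at 10.63, 10.18 and 10.23 in siCon and at 11.16, 10.90 and 10.74 in siCon_IFNg. In siCon_IFNg_GW it was at 11.07, 10.81 and 10.69, and in siSHP_IFNg_GW at 11.03, 11.02 and 11.12. The interferon-γ difference was 0.59 ± 0.15 (SE; limma adjusted p = 0.34), positive in all 3 numbers (0.54, 0.72 and 0.51). It passed with the block (adjusted p = 0.035) and without number 1 (0.61 ± 0.09, adjusted p = 0.0078). The GW difference was -0.08, with a 95% interval of -0.41 to 0.25, and that of SHP siRNA 0.20 ± 0.15 (adjusted p = 0.92 and 1.00). Against siCon, Stat3 with interferon-γ plus GW was 0.51 ± 0.15 higher (limma adjusted p = 0.18; 0.022 with the block and 0.016 without number 1), the only member of the 9 that passed that comparison in either setting (0.864% of all genes passed over 12 arrays, 6.84% with the block and 5.66% without number 1). All 3 arrays lay above every siCon array there, as for 18.2% of all genes. In that comparison 0 of 12 microglia markers were positive, their median was -0.54, and 1 fell over 12 arrays, 10 with the block and 6 without number 1; their part in the Stat3 difference was not tested.

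**Figure D2:**
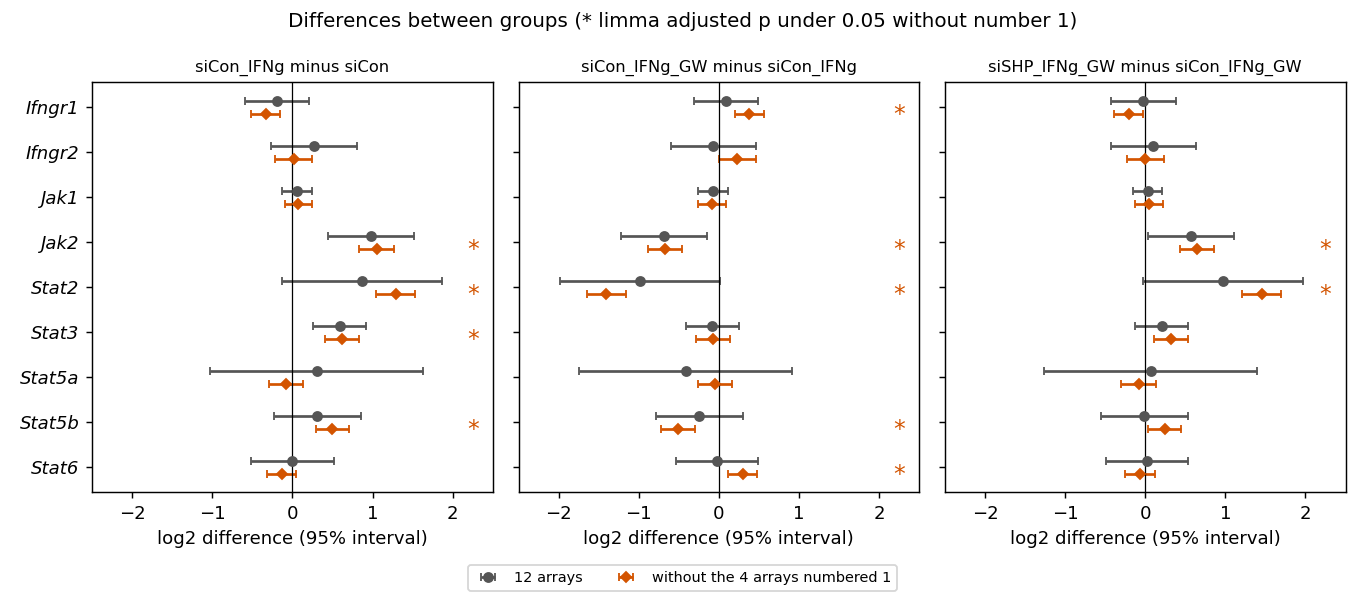
Log2 difference of each gene in 3 comparisons with its 95% interval from limma, over 12 arrays (grey circles) and without the 4 arrays numbered 1 (orange diamonds); an orange asterisk marks an adjusted p under 0.05 without number 1. The intervals of Stat2 and Stat5a narrow most when number 1 is left out, and Jak2 has nearly the same differences either way.

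Stat5a and Stat5b are close paralogues that lie side by side in the genome, followed by Stat3, and probes could in principle read part of the partner's transcript. Stat5a ran from 6.60 to 6.90 on the 8 arrays of numbers 2 and 3, with no group standing out. Number 1 was at 7.83 in siCon, 8.89 in siCon_IFNg, 7.75 in siCon_IFNg_GW and 8.12 in siSHP_IFNg_GW, above every array of the other numbers. Differences over 12 arrays were 0.30 ± 0.60, -0.41 ± 0.60 and 0.07 ± 0.60 (SE; limma adjusted p = 1.00, 0.89 and 1.00), and without number 1 they were -0.08, -0.05 and -0.08, each ± 0.09.

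Stat5b was at 8.25, 7.47 and 7.67 in siCon and at 8.18, 8.06 and 8.08 in siCon_IFNg. In siCon_IFNg_GW it was at 8.46, 7.60 and 7.52, and in siSHP_IFNg_GW at 7.95, 7.82 and 7.78. Numbers 2 and 3 therefore stepped higher, lower and higher in the manner of Stat2, over a smaller range, and number 1 took the opposite sign at each step. Over 12 arrays the differences were 0.31 ± 0.25, -0.25 ± 0.25 and -0.01 ± 0.25 (SE; limma adjusted p = 1.00, 0.82 and 1.00). Without number 1 Stat5b rose by 0.50 ± 0.09 with interferon-γ (adjusted p = 0.019) and fell by 0.51 ± 0.09 with GW (adjusted p = 0.0098). The difference with SHP siRNA was then 0.24 ± 0.09 and did not pass (adjusted p = 0.43).

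Stat6 had nearly equal group means, 8.08 ± 0.30, 8.08 ± 0.54, 8.06 ± 0.07 and 8.07 ± 0.13 (SD, n = 3) in the order siCon, siCon_IFNg, siCon_IFNg_GW, siSHP_IFNg_GW. Behind the wide SD of siCon_IFNg stood number 1 at 8.70 against 7.76 and 7.77. With GW number 1 was lower by 0.66, and numbers 2 and 3 were higher by 0.24 and 0.35. Over 12 arrays the GW difference was -0.02 ± 0.23 (SE; limma adjusted p = 0.99), and without number 1 Stat6 rose by 0.30 ± 0.08 (adjusted p = 0.0499), at the edge of the threshold. Its other differences did not pass in either setting.

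**Figure D3:**
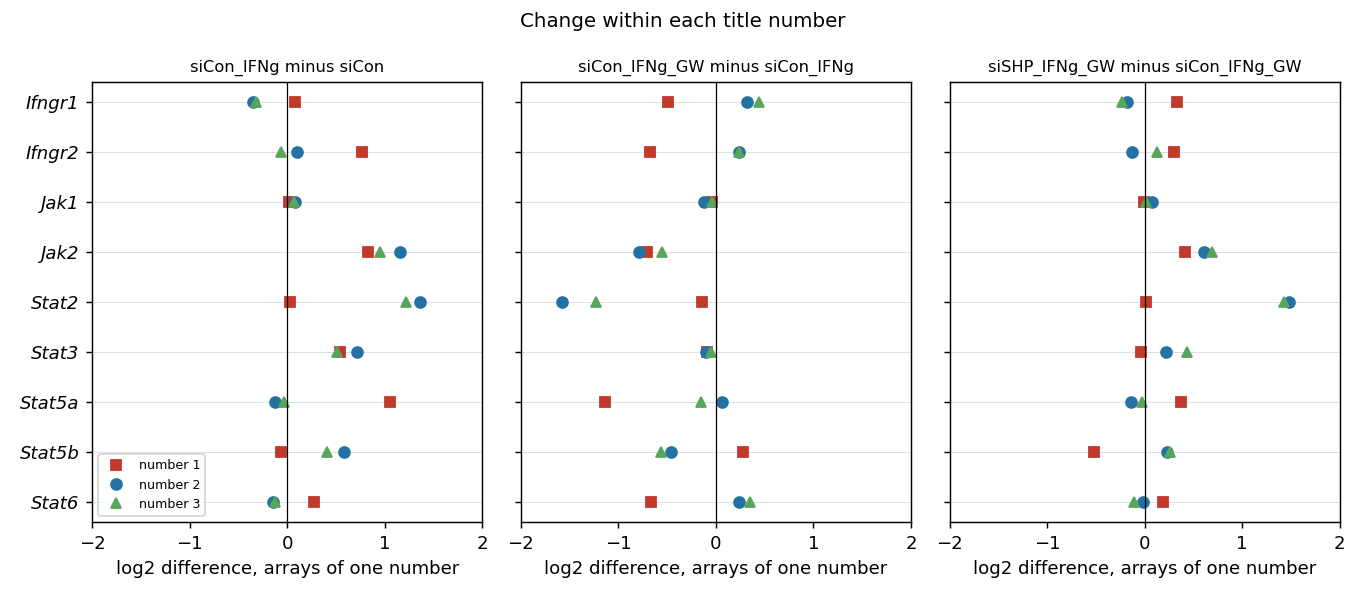
Difference between groups within each title number (1 array minus 1 array) for the 9 genes in 3 comparisons, on the log2 scale. Jak2 and Jak1 have the 3 numbers close together, and Stat2 has number 1 near 0 in each comparison. Ifngr1, Ifngr2, Stat5b and Stat6 have number 1 on the other side of 0 from numbers 2 and 3 when GW was added.

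When the change of number 1 was tested against that of numbers 2 and 3, 2 of 9 members differed with interferon-γ (2.43% of all genes), 6 of 9 with GW (3.02%), 1 of 9 with SHP siRNA (0.721%) and 0 of 9 for siCon_IFNg_GW against siCon (0.0495%). Jak2 differed in none of these, by -0.23, -0.03 and -0.23 in the first 3 (limma adjusted p = 0.68, 0.95 and 0.63).

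Promoter sequence was examined because Stat2, Stat3, Stat5b and Jak2 rose together without number 1. RefSeq (build GRCr8) gave a window of 250 bases before to 50 after the start site for 8 members; Jak1 had no entry. The 250 bases before the start are shown 5′ to 3′ on the gene's strand, with GC boxes (GGGCGG or its reverse complement), sites of Sp-family factors, in capitals.
Stat2, chr7:1286840-1287089, plus strand: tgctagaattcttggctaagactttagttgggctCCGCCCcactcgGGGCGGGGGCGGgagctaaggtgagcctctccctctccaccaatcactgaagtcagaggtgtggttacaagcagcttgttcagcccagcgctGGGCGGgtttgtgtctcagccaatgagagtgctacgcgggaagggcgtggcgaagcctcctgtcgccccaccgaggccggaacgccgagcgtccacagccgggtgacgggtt
Stat3, chr10:86363360-86363609, minus strand: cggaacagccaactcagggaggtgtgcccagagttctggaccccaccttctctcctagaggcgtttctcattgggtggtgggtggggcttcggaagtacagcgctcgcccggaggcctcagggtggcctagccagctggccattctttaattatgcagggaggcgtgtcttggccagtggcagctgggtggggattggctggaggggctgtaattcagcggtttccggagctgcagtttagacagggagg
Stat5b, chr10:86275953-86276202, minus strand: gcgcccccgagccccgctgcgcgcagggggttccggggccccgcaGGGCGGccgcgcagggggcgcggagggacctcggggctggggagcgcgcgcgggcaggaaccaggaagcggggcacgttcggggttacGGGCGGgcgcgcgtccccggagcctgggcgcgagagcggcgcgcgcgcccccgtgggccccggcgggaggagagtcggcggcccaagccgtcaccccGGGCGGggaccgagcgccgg
Jak2, chr1:236408655-236408904, plus strand: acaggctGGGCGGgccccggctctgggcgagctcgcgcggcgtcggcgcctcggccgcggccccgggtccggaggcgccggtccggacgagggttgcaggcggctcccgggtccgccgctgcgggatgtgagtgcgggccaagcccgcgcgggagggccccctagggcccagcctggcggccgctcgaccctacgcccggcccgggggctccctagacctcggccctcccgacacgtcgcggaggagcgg

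The STAT recognition letters were looked for on both strands in the whole window. TTCNNNGAA, the element bound by STAT dimers after interferon-γ, was found in 0 of 8 member windows and in 8.87% of all 33469 promoter windows. GAAA repeated after 2 bases, a core of the element bound by Stat2 with Irf9, was in 0 of 8 and in 3.92% of all. TTC and GAA with 4 bases between them, the spacing preferred by Stat6, was in 1 of 8 and in 7.28% of all; the match was TTCCTGGGAA at position -88 from the Ifngr2 start. GC boxes were in 6 of 8 member windows, all but Stat3 and Stat6, and in 33.1% of all. The Jak2 and Stat5b windows were 80.3% and 82.7% G or C, against 64.3% for Stat2 and 62.3% for Stat3. These are letters in a short window, and the wider regulatory regions were not examined.

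The members fell into patterns when each array was set relative to the mean of its title number. Pearson r over the 12 arrays, a description in which arrays share numbers and groups, was 0.83 between Stat2 and Jak2, 0.86 between Stat3 and Jak2 and 0.64 between Stat2 and Stat3. Irf1 correlated with Stat3 at 0.97 and with Jak2 at 0.87. Stat2 also went with Jak1 (0.82) and Stat5b (0.71). Pearson r does not show the size of a change, and the Jak1 values ran only from 9.79 to 9.98. Ifngr1 went with Stat6 (0.82) and against Stat5b (-0.85).

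**Figure D4:**
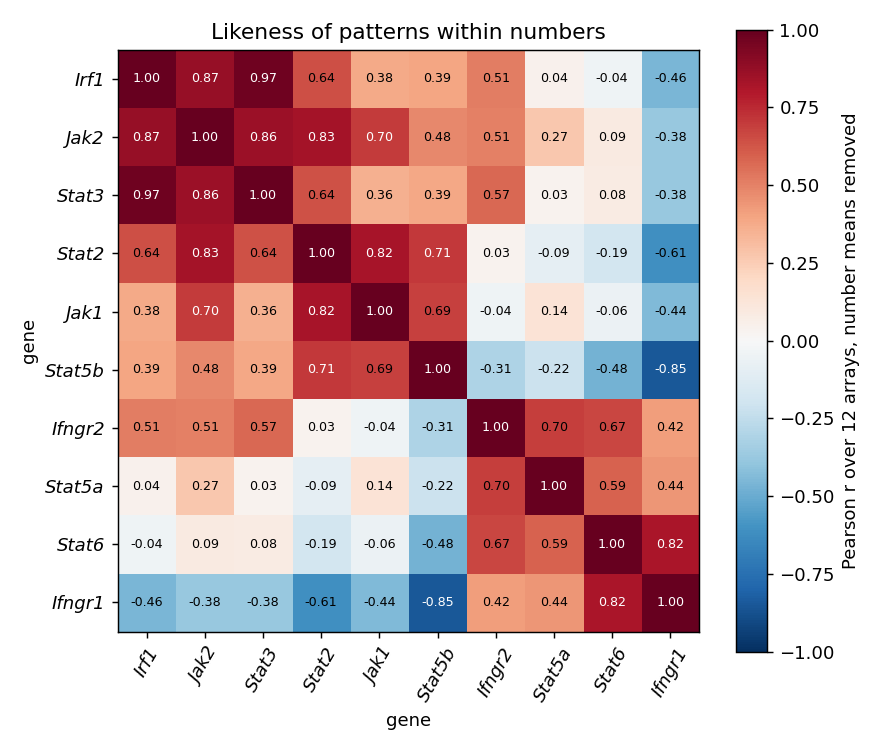
Pearson r between pairs of the 9 genes and Irf1 over 12 arrays after the mean of the arrays of the same title number was subtracted; red is positive and blue negative. Irf1, Jak2, Stat3 and Stat2 have r of 0.64 to 0.97 with each other, and Stat2 also has 0.82 with Jak1 and 0.71 with Stat5b. Ifngr1 is positive with Stat6 and negative with Stat5b.

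By the same measure over 12278 genes above background, the genes most like Stat2 were the interferon-inducible GTPase genes Ifgga2l2 (r = 0.997) and Gbp6 (0.995), and also RGD1309362 (0.995). Ifgga2l2 had 2.32 with interferon-γ, -2.66 with GW and 2.52 with SHP siRNA over 12 arrays, each ± 0.85 (SE). It passed in none of these over 12 arrays or with the block (limma adjusted p = 0.23, 0.058 and 0.72 with the block). Its differences in number 1 were 0.25, -0.50 and 0.03, and it was at 10.07 in siCon number 1 against 7.27 and 7.26 in numbers 2 and 3. Stat3 was most like the monocyte chemokine genes Ccl7 (0.98) and Ccl2 (0.98) and Irf1 (0.97). Jak2 was most like Ncoa7 (0.98), Plek (0.98) and Rcl1 (0.97). Plek, a protein kinase C substrate of myeloid cells, had 1.51, -1.25 and 1.21 in the 3 comparisons (limma adjusted p = 0.16, 0.12 and 1.00; 0.017, 0.014 and 0.46 with the block). Stat5b was most like Tnfrsf1a, a receptor of tumour necrosis factor (0.98), Stat5a like Hhipl1 (0.97), Stat6 like Syap1 (0.97), Jak1 like Cxcl17 (0.95), Ifngr1 like Gucy1b1 (0.95) and Ifngr2 like Esm1 (0.97). With interferon-γ the change of Hhipl1 and Esm1 was mainly in number 1. Hhipl1 differed by 0.92 there and by -0.09 and -0.02 in numbers 2 and 3. Esm1 differed by 0.96, -0.0076 and -0.0040.

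Other genes of the pathway were taken from lists. Of the partner proteins, Irf9, Tyk2 and Jak3 were measured. Irf9 resembled Stat2: it was at 9.79, 8.29 and 8.21 in siCon, 9.76, 9.40 and 9.37 in siCon_IFNg, 9.68, 8.03 and 8.17 in siCon_IFNg_GW and 9.74, 9.62 and 9.68 in siSHP_IFNg_GW. Number 1 was high in every group for this gene as well. Over 12 arrays Irf9 had 0.75, -0.88 and 1.05, each ± 0.46 (SE), and did not pass (limma adjusted p = 1.00, 0.53 and 1.00). Without number 1 it rose by 1.14, fell by 1.29 and rose by 1.55. Tyk2 and Jak3, kinases of other cytokine receptors, had differences between -0.23 and 0.10 in the 3 comparisons and passed in none, with or without number 1.

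Among 23 measured receptors that signal through JAKs, 0 passed with interferon-γ over 12 arrays or with the block, and 6 rose without number 1 (3.05% of all genes rose there). With GW, Lifr, the receptor of leukaemia inhibitory factor, fell by 1.29 ± 0.24 (SE; limma adjusted p = 0.037). It was the only receptor of the list past the threshold over 12 arrays, where 0.886% of all genes passed. With the block 5 receptors fell and 1 rose (6.55% of all genes passed), and without number 1 7 fell and 2 rose (4.98% of all genes fell and 6.47% rose). Il10rb, a shared chain of the interleukin-10 receptor family, had -0.87 ± 0.21 with GW (limma adjusted p = 0.10; it fell with the block, adjusted p = 0.0065). Il6st, the signalling chain of the interleukin-6 family, had 0.33, -0.31 and 0.18, each ± 0.09. Its groups did not overlap in any of the 3, as for 9.3%, 15.3% and 6.47% of all genes. It passed in none of them over 12 arrays or with the block. Without number 1 Il6st rose with interferon-γ (0.41, limma adjusted p = 0.030) and passed in neither other comparison. The list's median was 0.08, -0.22 and 0.05, against -0.03, 0.00 and -0.02 over all genes. With SHP siRNA 0 receptors passed over 12 arrays and 4 rose without number 1 (1.35% of all genes rose).

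Among 24 measured regulators of the pathway, Socs2, a feedback inhibitor, rose with interferon-γ by 1.54 ± 0.24 (SE; limma adjusted p = 0.046). It alone of the 24 passed over 12 arrays, where 0.121% of all genes did. Cish, a related inhibitor and Stat5 target, had 1.46 ± 0.25 (adjusted p = 0.071; 0.012 with the block). Socs1, an inhibitor of JAK kinases, had 3.59 ± 0.66 (adjusted p = 0.097; 0.017 with the block) and rose by 4.49 without number 1. With the block 3 regulators rose with interferon-γ (0.936% of all genes passed) and 6 without number 1 (3.05% rose).

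With GW Socs5 rose by 0.82 ± 0.15 (adjusted p = 0.036) and Socs1 fell by 3.52 ± 0.66 (SE; limma adjusted p = 0.038). No other regulator of the list passed over 12 arrays, where 0.886% of all genes did. Cish had -0.80 with GW (adjusted p = 0.20; 0.049 with the block) and Socs2 had -0.91 (0.13; 0.017 with the block). With the block 3 regulators rose and 5 fell (6.55% of all genes passed), and without number 1 3 rose and 8 fell (6.47% and 4.98% of all genes). With SHP siRNA Socs1 had 2.73 ± 0.66 (adjusted p = 1.00), with 1.10, 3.21 and 3.88 in the 3 numbers, and rose without number 1 by 3.54, as did 3 other regulators (1.35% of all genes rose). The list medians, 0.03, 0.01 and 0.04, lay close to those of all genes.

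Known target genes of single STATs were counted as lists that share members. With interferon-γ 8 of 10 Stat3 targets were positive with a median of 0.66, and 0 passed over 12 arrays. With the block 2 rose, the kinase gene Pim1 (1.53, limma adjusted p = 0.83 without and 0.0015 with the block) and Bcl3 (1.28, adjusted p = 0.96 without and 0.038 with the block). Of 8 Stat5 targets 1, Socs2, rose over 12 arrays and 3 with the block, with a median of 0.45. Of 12 Stat6 targets 0 rose over 12 arrays and 3 with the block, with a median of 0.09. Over all genes 0.121% passed over 12 arrays and 0.936% with the block. Without number 1, 5 Stat3, 4 Stat5 and 4 Stat6 targets rose with interferon-γ, where 3.05% of all genes rose, and 0 fell.

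With GW the Stat3 targets had a median of 0.03, and 0 passed over 12 arrays. Myc (1.44, limma adjusted p = 0.094; 0.0041 with the block) and Junb (1.90, adjusted p = 0.36; 0.0087 with the block) rose with the block. Timp1, an inhibitor of metalloproteinases, fell with the block (-0.49, adjusted p = 0.11 without and 0.043 with the block) and without number 1 (-0.63, adjusted p = 0.0035). Of the Stat5 targets 0 passed over 12 arrays, 2 fell with the block and 3 fell without number 1. Of the Stat6 targets Klf4 rose (1.63 ± 0.30 SE, limma adjusted p = 0.036) and Socs1 fell over 12 arrays; 1 rose and 4 fell with the block, and 1 rose and 5 fell without number 1. Over all genes 0.886% passed over 12 arrays and 6.55% with the block, and without number 1 4.98% fell and 6.47% rose.

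With SHP siRNA 0 targets of any of the 3 lists passed over 12 arrays or with the block, as for all genes. Without number 1, 1 of 10 Stat3, 2 of 8 Stat5 and 2 of 12 Stat6 targets rose and 0 fell, where 1.35% of all genes rose.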

How the data were processed

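The deposited table held log2 expression values from whole-transcript arrays, 36685 rows by 12 arrays, made by the authors; background correction, summarisation and normalization are not given in the sources used here. Values from 1.01 to 13.43 were read as base 2. A platform annotation paired 18511 rows with 1 gene, 575 with several and 17599 with none; rows with several genes were not used, and the row with the highest mean was taken for 291 genes with more than 1, leaving 18166. Symbols were checked by Entrez ID against RefSeq (assembly GRCr8), where 18394 rows matched and 0 changed. Columns of other samples numbered 0.

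Groups and numbers came from the titles. Comparisons were contrasts of 4 group means in limma 3.58.1 (R 4.3.3; lmFit, eBayes) over all 12 arrays, with Benjamini-Hochberg adjustment over all genes and a threshold of 0.05, checked on simulated data. Alternatives were a replicate block, median centring, quantile normalization, dim genes left out, every row tested, array weights, number 1 left out and each array left out. A further model gave number 1 its own effect in each group. Same-number arrays deviated together from their group means (r = 0.63 to 0.77, 0.48 to 0.58 and 0.43 to 0.55 for numbers 1, 2 and 3). The numbers thus look paired, from the data alone, as the labels state no design. The main model leaves this pairing out, and the replicate block takes it in. Values with the block are printed where they change the call of a test given. The number of arrays limits precision. Members and lists were chosen with earlier results of these data known. Named genes were the members, Irf1, Nr0b2, up to 3 genes of smallest p per list and comparison, and the 3 genes most like each member, of which the first alone is given for 6 members. Figures used matplotlib 3.10.9 in Python 3.11.15.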

Additional observations from a re-analysis of the deposited data

Results flagged for a closer look

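The change between groups differed between number 1 and numbers 2 and 3 for several members (limma, adjusted p under 0.05 over all genes). Number 1 has a single array per group, so the spread in this test comes from the other arrays and is assumed to hold for it. With interferon-γ, 2 of 9 members differed against 2.43% of all genes: the change of Stat2 in number 1 minus that in numbers 2 and 3 was -1.25 ± 0.18 (SE; adjusted p = 0.012), and that of Stat5a was 1.14 ± 0.16 (adjusted p = 0.011). When GW was added, 6 of 9 members differed against 3.02% of all genes. Stat2 had 1.26 (adjusted p = 0.012), Stat5b 0.79 (0.039), Stat5a -1.09 (0.013), Stat6 -0.96 (0.012), Ifngr1 -0.87 (0.016) and Ifngr2 -0.91 (0.035). With SHP siRNA Stat2 alone of the 9 differed, by -1.44 (adjusted p = 0.017), against 0.721% of all genes. For siCon_IFNg_GW against siCon 0 of 9 members differed and 0.0495% of all genes did. The 3 steps share arrays, so a single array such as siCon_IFNg number 1 enters more than 1 of these values.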

How the results depend on the processing

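The comparisons are taken in the order siCon_IFNg against siCon, siCon_IFNg_GW against siCon_IFNg, siSHP_IFNg_GW against siCon_IFNg_GW and siCon_IFNg_GW against siCon. Members called were 0 in each; with the replicate block they were 2, 1, 0 and 1, without number 1 4, 5, 2 and 1, and with array weights 3, 2, 1 and 1. Genes called over the whole table were 22, 161, 0 and 157; with the replicate block 170, 1189, 0 and 1242, without number 1 856, 2081, 267 and 1028, and with array weights 414, 1307, 127 and 1282. Median centring gave 79 in the second and 79 in the fourth comparison. Leaving out each array in turn, members called were 0 throughout, and genes called ran from 2 to 66, 27 to 412, 0 to 1 and 23 to 250. Stat6 with GW reversed without number 1, from -0.02 to 0.30. In other settings 60 values that passed in neither changed sign, over 20 of the 36 differences, the largest of them 0.41 in size. The replicate block changed no other call of a member than those given beside the results. The cause of these changes was not tested. Number 1 left out leaves 2 arrays per group.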

Other observations

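Neighbouring genes were read from the RefSeq gene order (GRCr8). Rcl1, which encodes a ribosomal RNA processing factor, is a protein-coding gene next to Jak2, with Insl6 on the other side. Rcl1 was also among the 3 genes most like Jak2 on these arrays. No neighbour of another member was among the 3 genes most like that member. Rcl1 was at 6.47, 6.68 and 6.63 in siCon, 6.86, 7.18 and 7.17 in siCon_IFNg, 6.48, 6.79 and 6.79 in siCon_IFNg_GW and 6.57, 7.12 and 7.21 in siSHP_IFNg_GW. Its differences were 0.47, -0.39 and 0.28, each ± 0.17 (SE), and did not pass over 12 arrays (limma adjusted p = 0.70, 0.42 and 1.00); with the block it fell with GW (adjusted p = 0.040) and without number 1 it fell with GW and rose with interferon-γ (0.52, adjusted p = 0.0074). Ifnar1, a chain of the type I interferon receptor, is next to Ifngr2. Ifnar1 had -0.34 ± 0.09 with GW (limma adjusted p = 0.13; 0.046 with the block; -0.25, 0.085 without number 1), negative in all 3 numbers, where Ifngr2 had -0.68, 0.23 and 0.23. Stat5b, Stat5a and Stat3 follow each other on chromosome 10.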
